A study of Mus musculus with 12 samples.

Results

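Chemokine and interleukin ligand genes were examined in C2C12 cells, a mouse myoblast line from C3H muscle, upon silencing of Bach1. The members were all array probes whose gene symbol is Ccl or Cxcl followed by a number, or Il followed by a number and at most 1 of the letters a, b, c, d and f, which gave 95 probes of 65 genes among 56605 probes and 27306 gene symbols. Of these, 38 probes of 29 genes were expressed, that is, called well above background by the scanner in 1 or more conditions on each of the 3 arrays, and the other 57 probes had no such condition and are called silent here, which left 36 genes with silent probes alone. The 4 conditions were siControl and siBach1 cells, each at day 0, without induction, and at day 2 of muscle differentiation, with 3 arrays per condition and no other treatment or genotype. Differentiation was induced in confluent cells, 24 h after transfection of the siRNA, with DMEM holding 2% horse serum. All arrays come from 1 cell line and 1 siRNA against Bach1, and the labels do not say whether replicates are separate cultures, so that p-values measure the spread between these samples.

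Chemokines are small secreted proteins that direct the migration of leukocytes through G protein-coupled receptors, and are divided by the spacing of their first cysteines into the CC ligands (Ccl) and the CXC ligands (Cxcl). Interleukins are a functional rather than a structural class, which holds the interleukin 1 family, the ligands of the common gamma chain and of gp130, and several others. In injured muscle, both leukocytes and myogenic cells release them, and monocytes and neutrophils are recruited by CC and CXC chemokines, while interleukins 6 and 15 are known as cytokines made by muscle cells themselves. Bach1 is a haem-regulated transcriptional repressor that binds with small Maf proteins to antioxidant response elements.

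Bach1 itself was lower in every siBach1 array, with log2 levels of -0.22 to 0.18 against 1.55 to 1.78 at day 0 and 0.56 to 0.65 against 2.55 to 2.58 at day 2. All levels here are log2 signals minus the 75th percentile of the array, so that 0 is that percentile, and a level of 1 probe cannot be set against that of another. The scanner called between 47.6% and 58.9% of all probes on an array well above background, and the 75th percentile of the signal was between 326 and 534. Of 10 muscle markers, 9 reached this on each of the 12 arrays, and their summed log2 level was 7.12 to 7.24 in siControl and 7.27 to 7.43 in siBach1 cells at day 0, and 10.67 to 10.75 and 10.09 to 10.29 at day 2. Of 11 leukocyte markers, 7 had a probe well above background on all 12 arrays, but the defining macrophage gene Adgre1 and Tyrobp were on 0 arrays. The summed leukocyte level was 4.35 to 4.58 in siControl and 4.42 to 4.55 in siBach1 cells at day 0, and 4.78 to 5.19 and 4.52 to 5.11 at day 2. The part of these markers in the results was not tested, and in these bulk samples fewer cells of a type and less RNA per cell cannot be told apart.

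Expressed members made up 40% of the member probes, where 52.4% of all probes on the array were expressed by the same definition. They were 9 of 25 Ccl probes from 8 of 19 genes, 9 of 18 Cxcl probes from 7 of 13 genes, and 20 of 52 interleukin probes from 14 of 33 genes. The expressed Ccl genes were Ccl2, Ccl5, Ccl7, Ccl8, Ccl9, Ccl11, Ccl17 and Ccl25. The expressed Cxcl genes were Cxcl1, Cxcl5, Cxcl10, Cxcl11, Cxcl12, Cxcl13 and Cxcl16. Among interleukins these were Il1b, Il3, Il6, Il7, Il11, Il12a, Il15, Il17d, Il18, Il21, Il22, Il27, Il33 and Il34. Some of these genes also had silent probes. Those of Il1b, Il3, Il7, Il21 and Il22 were well above background on 0 arrays. That of Cxcl10 was on 1 array, that of Cxcl16 on 3, and those of Ccl25 on 0 and 4. Of the 38 expressed probes, 23 were well above background on all 12 arrays. Among the 57 silent probes, 32 were on 0 arrays, 22 on 1 to 3 and 3 on 4 or more, and 18 of the 36 silent genes had every probe on 0 arrays. Of 3 silent cytokines of T helper cells, Il4 and Il10 were on 0 arrays. Il13 was well above background on 7 arrays, which were 2 siControl and 1 siBach1 arrays at day 0 and 2 of each at day 2. By position in the mouse assembly GRCm38.p6, 17 member genes are on chromosome 11, where 8 are expressed, and 13 are on chromosome 5, where 6 are expressed.

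**Figure D1:**
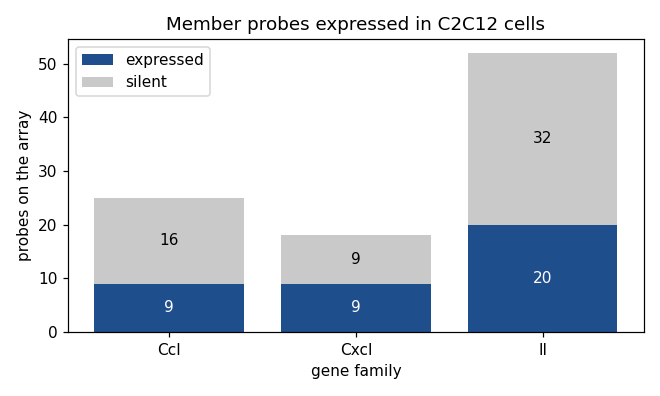
Number of probes (vertical axis) of each ligand family (horizontal axis) that were expressed (dark) or silent (grey) in C2C12 cells. Fewer probes were expressed than silent among the Ccl and interleukin probes (9 of 25 and 20 of 52), and 9 of 18 Cxcl probes were expressed.

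The sequence before the start site was read for the member genes that RefSeq's promoter table of GRCm38.p6 lists, which were 45 of 65 genes and 18 of the 29 expressed ones, with 22 promoters. The 250 bases before each start were searched on both strands for the kappaB motif of NF-kappaB, the core of the antioxidant response element (TGACNNNGC) and the AP-1 motif (TGANTCA). The kappaB motif was found in 4 of 22 expressed member promoters (18.2%), in 5 of 30 silent ones (16.7%) and in 3.9% of 32851 promoters of all genes. AP-1 was in 4 expressed (18.2%) and 4 silent (13.3%) member promoters against 6.75% of all, and the antioxidant core in 2 expressed (9.1%) and 1 silent (3.3%) against 10.2% of all. The 5 promoters below are those of members called after silencing that hold a kappaB motif or an antioxidant core, with every motif match in capitals and the last base next to the start site.
Cxcl1, chr5:90890995-90891244, plus strand: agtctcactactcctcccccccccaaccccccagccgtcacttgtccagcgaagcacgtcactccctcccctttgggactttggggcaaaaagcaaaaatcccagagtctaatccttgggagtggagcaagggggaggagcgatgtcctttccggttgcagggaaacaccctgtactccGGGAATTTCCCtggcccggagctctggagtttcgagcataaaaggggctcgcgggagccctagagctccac
Il6, chr5:30012864-30013113, plus strand: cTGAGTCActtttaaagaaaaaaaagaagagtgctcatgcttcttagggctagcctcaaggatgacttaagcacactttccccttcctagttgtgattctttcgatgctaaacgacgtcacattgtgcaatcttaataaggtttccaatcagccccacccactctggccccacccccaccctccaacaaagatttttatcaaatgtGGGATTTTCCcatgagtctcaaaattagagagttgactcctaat
Ccl9, chr11:83578637-83578886, minus strand: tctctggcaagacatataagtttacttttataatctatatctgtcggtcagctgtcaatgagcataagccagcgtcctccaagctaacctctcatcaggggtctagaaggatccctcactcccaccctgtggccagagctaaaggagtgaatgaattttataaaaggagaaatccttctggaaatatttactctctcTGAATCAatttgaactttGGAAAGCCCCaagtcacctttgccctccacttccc
Cxcl10, chr5:92348890-92349139, minus strand: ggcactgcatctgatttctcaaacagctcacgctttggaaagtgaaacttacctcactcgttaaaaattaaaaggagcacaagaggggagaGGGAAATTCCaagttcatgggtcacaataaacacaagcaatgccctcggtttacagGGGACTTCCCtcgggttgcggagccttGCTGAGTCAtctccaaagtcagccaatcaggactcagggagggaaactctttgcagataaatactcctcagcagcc
Cxcl13, chr5:95956689-95956938, plus strand: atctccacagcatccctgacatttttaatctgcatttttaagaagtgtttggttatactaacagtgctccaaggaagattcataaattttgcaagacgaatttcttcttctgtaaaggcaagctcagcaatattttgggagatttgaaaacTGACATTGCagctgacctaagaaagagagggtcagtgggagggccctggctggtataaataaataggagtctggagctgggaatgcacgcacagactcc
In Cxcl1 the kappaB motif matched on both strands, from 71 and 70 bases before the start, as 1 palindromic site. Il6 has an AP-1 match from 249 bases and a kappaB match from 44 bases before the start, and Ccl9 an AP-1 match from 53 and a kappaB match from 35. Cxcl10 has kappaB matches from 159 and 103 bases before the start, and an antioxidant core from 76 that overlaps an AP-1 match from 74. In Cxcl13 the only match is an antioxidant core from 99 bases before the start, and 1 of the 2 Il11 promoters has an AP-1 match from 98. Neither of the 2 Il33 promoters holds any of these letters in this window. A match describes the sequence and not the binding of a factor. Ccl2, Ccl5, Ccl7, Ccl11, Cxcl5, Cxcl11, Cxcl16, Il7, Il15, Il27 and Il34 had no entry.

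To see how the loss of Bach1 changed these ligands, siBach1 was compared with siControl at each day in a single limma fit of the 12 arrays, and a probe passed where the Benjamini-Hochberg adjusted p over all 29664 expressed probes was under 0.05. At day 0, 11 of the 38 expressed member probes (28.9%) rose and 6 (15.8%) fell, where 8.8% of all expressed probes rose and 8.32% fell. They were probes of 9 and 5 genes: Cxcl1, Cxcl5, Cxcl12, Ccl7, Ccl8, Il6, Il12a, Il15 and Il33 rose, and Cxcl10, Cxcl13, Il3, Il11 and Il34 fell. At day 2, 8 member probes (21.1%) rose and 5 (13.2%) fell, where 5.75% and 6.26% of all expressed probes did. These were Cxcl1, Cxcl5, Ccl9, Il15 and Il33, which rose, and Cxcl10, Cxcl13, Ccl5 and Ccl25, which fell. The median fitted change of the expressed member probes was 0.06 at day 0, against 0.09 over all expressed probes, and 0.08 against -0.01 at day 2. A probe that was above background only in the group where it was high entered these counts through that group, so the counts were also taken over probes measured on all 6 arrays compared, of which 8 of 24 rose and 4 fell at day 0, and 7 of 30 rose and 4 fell at day 2. With probes not above background in a whole group taken at their bound, or at 0 where there was none, the medians were 0.01 and 0.05, and a change of at least 2-fold was reached by 3 of the probes that rose and 2 of those that fell at day 0, and by 7 and 3 at day 2. The shares were not tested against those of all probes. For the counts over probes measured on all 6 arrays and for the 2-fold counts, no share over all probes is given. These counts therefore cannot be read as particular to the members.

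Arrays 1 and 2 of each condition shared a slide and array 3 was on the other. All 17 calls at day 0 and all 13 at day 2 had the same direction within each slide. These calls were chosen in a fit of the same arrays, so their shared direction is no separate support. Each condition took the same place on both slides, so that place and condition cannot be told apart. At day 0 the count of calls fell from 17 to 10 without siControl replicate 1 or without siBach1 replicate 2, and to 8 with no filter on dim probes, under which Cxcl5, Cxcl12, Cxcl13, Il11, Il12a and both probes of Il6 and of Il34 did not pass.

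**Figure D2:**
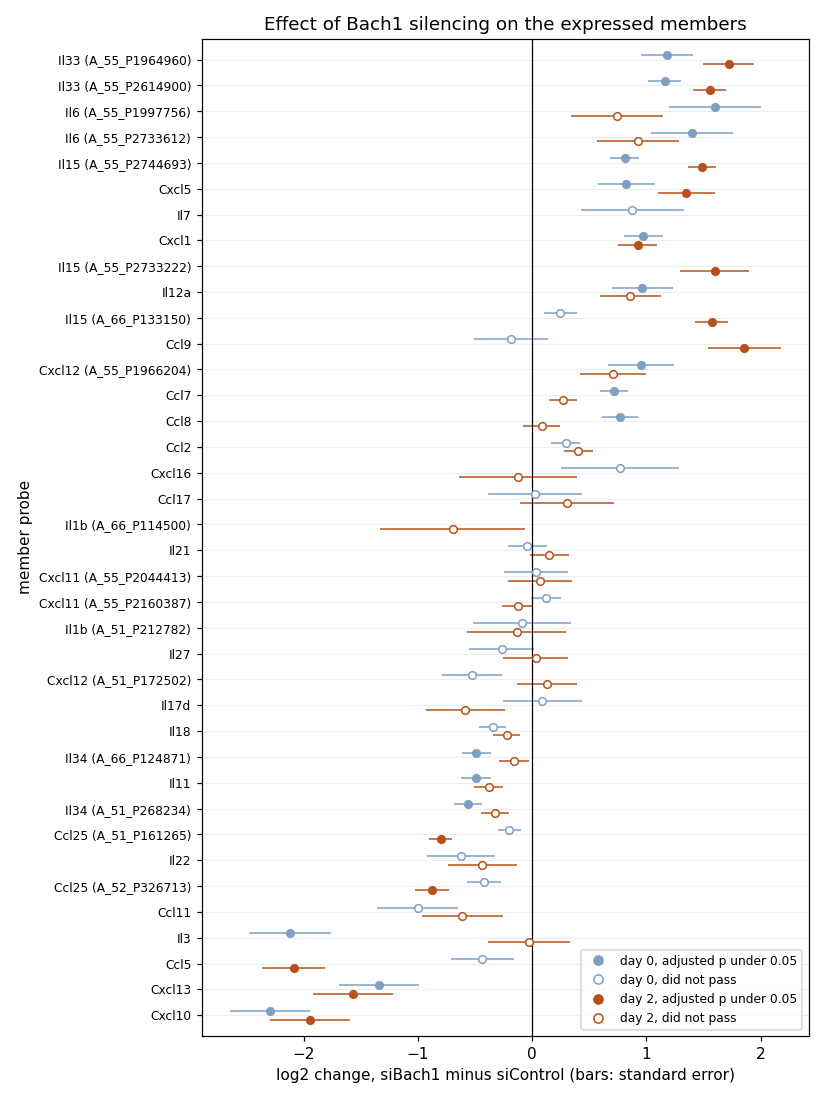
Log2 change of siBach1 over siControl cells (horizontal axis, bars are the standard error of the fit) for each expressed member probe, at day 0 (blue) and day 2 (red). Filled points passed the adjusted p of 0.05, points of probes not well above background on any of the 6 arrays compared are left out, and where 1 group had no such array (Il3, the second Il6 probe and Il1b at day 0) the point is a fitted value and no measured fold. Il33, Il15 and Cxcl5 lie to the right at both days, and Cxcl10 and Cxcl13 to the left.

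Cxcl1 and Cxcl5, ligands of Cxcr2 that recruit neutrophils, rose at both days. Cxcl1 levels at day 0 were -1.12, -0.96 and -1.23 in siControl cells and -0.32, 0.08 and -0.15 in siBach1 cells. At day 2, Cxcl1 levels were -2.76, -2.37 and -2.61 in siControl cells and -1.91, -1.75 and -1.31 in siBach1 cells. Each siBach1 array was above each siControl array of its day, while both siRNA groups fell with differentiation. The silencing effect on Cxcl1 was 0.97 ± 0.17 (adjusted p = 0.00347) at day 0 and 0.92 ± 0.17 (adjusted p = 0.00763) at day 2, or 1.97- and 1.9-fold, where ± is the standard error of the fit over 3 arrays per condition here and in all that follows. Cxcl5 levels at day 0 were -0.44, -0.42 and -0.49 in siControl cells and 0.29, 0.21 and 0.63 in siBach1 cells. At day 2, Cxcl5 levels were -2.58, -1.57 and -2.26 in siControl cells and -1.04, -0.92 and -0.40 in siBach1 cells. Here too the groups did not overlap at either day. Its effect was 0.83 ± 0.25 (adjusted p = 0.0449) at day 0 and 1.35 ± 0.25 (adjusted p = 0.00739) at day 2. At day 0 the Cxcl5 call was lost in 9 of 12 fits with 1 array left out, namely all except those without siControl day 2 replicate 1 or 2 or without siBach1 day 2 replicate 3.

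Among the CC chemokines of monocytes, Ccl7 and Ccl8 rose at day 0 and Ccl9 at day 2. Ccl7 levels at day 0 were 3.01, 3.02 and 3.22 in siControl cells and 3.70, 3.78 and 3.93 in siBach1 cells. At day 2, Ccl7 levels were 1.44, 1.77 and 1.57 in siControl cells and 1.81, 1.71 and 2.07 in siBach1 cells. The groups were apart at day 0 and overlapped at day 2. Ccl7 changed by 0.72 ± 0.12 (adjusted p = 0.0032) at day 0, and the difference at day 2 was 0.27 ± 0.12 (adjusted p = 0.193). Ccl8 levels at day 0 were -1.63, -1.80 and -1.73 in siControl cells and -0.96, -1.18 and -0.72 in siBach1 cells. At day 2, Ccl8 levels were 0.08, 0.10 and -0.19 in siControl cells and -0.01, -0.15 and 0.40 in siBach1 cells. Again the day 0 groups were apart and those of day 2 overlapped. For Ccl8 the effect was 0.77 ± 0.16 (adjusted p = 0.00864) at day 0 and the difference 0.08 ± 0.16 (adjusted p = 0.803) at day 2. The test of the difference between the effects of the 2 days did not pass for either gene. It gave -0.45 ± 0.18 (adjusted p = 0.169) for Ccl7 and -0.69 ± 0.23 (adjusted p = 0.111) for Ccl8. Ccl2, the main attractant of inflammatory monocytes through Ccr2, differed by 0.29 ± 0.13 (adjusted p = 0.143) at day 0 and 0.40 ± 0.13 (adjusted p = 0.0659) at day 2 and did not pass at either, although the groups did not overlap at either day.

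Ccl9, a ligand of Ccr1, had the largest rise of a member at day 2. Ccl9 levels at day 0 were -1.69, -1.78 and -2.10 in siControl cells and -1.99, -2.08 and -2.05 in siBach1 cells. At day 2, Ccl9 levels were -0.90, -0.28 and -1.13 in siControl cells and 0.76, 0.60 and 1.91 in siBach1 cells. The 6 arrays of day 0 were mixed, and at day 2 the siBach1 arrays were the 3 highest of all 12, replicate 3 above the others. The effect was 1.86 ± 0.32 (adjusted p = 0.00554) at day 2, or 3.63-fold, and the difference at day 0 was -0.18 ± 0.32 (adjusted p = 0.75). Within slides the day 2 difference was 1.27 on the slide of replicates 1 and 2 and 3.04 on that of replicate 3. The test of the difference between the effects of the 2 days gave 2.04 ± 0.45 (adjusted p = 0.0344), a call that was lost in 9 of 12 fits with 1 array left out and held without siControl day 2 replicate 2, siBach1 day 2 replicate 2 or siBach1 day 2 replicate 3.

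**Figure D3:**
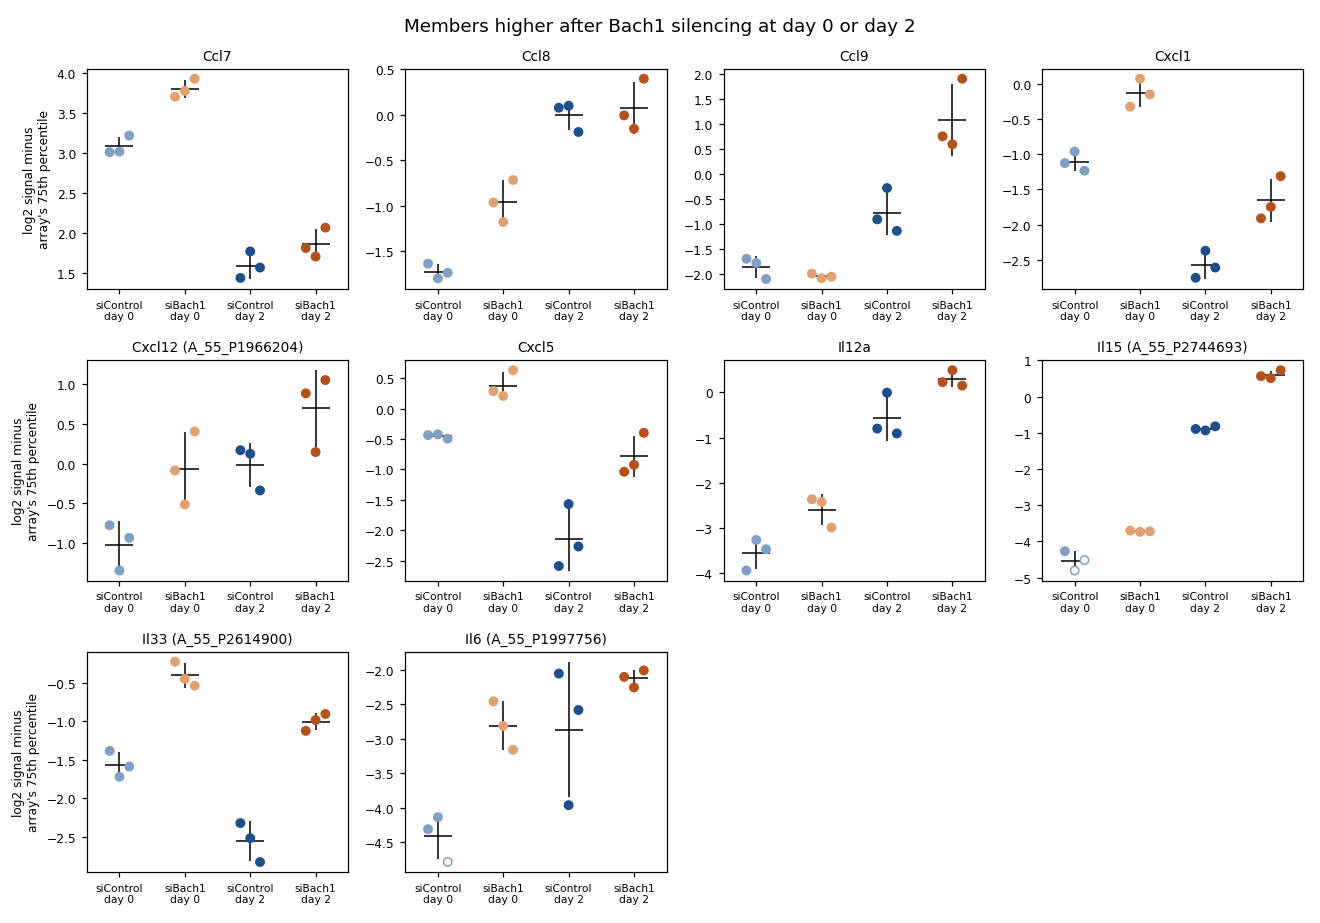
Log2 level (vertical axis, relative to the 75th percentile of the array) on each of the 12 arrays for the 10 genes that rose upon silencing at either day, 1 probe per gene, by condition (horizontal axis). Points are arrays, open where the probe was not well above background, and black marks are the mean and SD of 3. Of several expressed probes of a gene, the one with the lowest adjusted p in either silencing comparison is shown. In the Cxcl1, Cxcl5, Il33 and Il15 panels the siBach1 arrays lie above the siControl arrays at both days. The Il15 probe that was well above background on all 12 arrays is not shown, and its groups overlapped at day 0 (adjusted p = 0.282 in the limma fit).

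Cxcl10, a ligand of Cxcr3, and Ccl5, which both attract T cells and are inducible by interferon, fell, Cxcl10 at both days and Ccl5 at day 2. Cxcl10 levels at day 0 were -2.85, -2.87 and -2.87 in siControl cells and -4.66, -5.08 and -5.73 in siBach1 cells. At day 2, Cxcl10 levels were -2.11, -2.38 and -2.40 in siControl cells and -4.78, -3.35 and -4.58 in siBach1 cells. No siBach1 array reached a siControl array at either day, and the scanner called only 1 of the 3 siBach1 arrays at day 0 and 2 at day 2 well above background. Cxcl10 fell by 2.30 ± 0.35 (adjusted p = 0.00161) at day 0, the largest fall of a member measured in both groups, and by 1.94 ± 0.35 (adjusted p = 0.00697) at day 2. Of the other Cxcr3 ligands, Cxcl11 had 2 expressed probes with differences between -0.13 and 0.12 over both days, none of which passed. Cxcl9 was silent, well above background on 2 siBach1 arrays of day 2 alone.

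Ccl5 levels at day 0 were -2.89, -2.97 and -2.67 in siControl cells and -2.73, -3.24 and -3.88 in siBach1 cells. At day 2, Ccl5 levels were -0.96, -0.29 and -0.13 in siControl cells and -2.67, -2.54 and -2.44 in siBach1 cells. The groups overlapped at day 0, and at day 2 the siControl arrays had risen above all others. The difference was -0.43 ± 0.28 (adjusted p = 0.324) at day 0 and -2.09 ± 0.28 (adjusted p = 0.00157) at day 2, which is 4.25-fold lower. The effects of the 2 days differed by -1.65 ± 0.39 (adjusted p = 0.0431), which was lost in 10 of 12 fits with 1 array left out and held without siControl day 2 replicate 1 or without siBach1 day 0 replicate 3.

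The B cell chemokine Cxcl13 fell at both days. Cxcl13 levels at day 0 were -1.04, -1.15 and -2.01 in siControl cells and -2.14, -2.61 and -3.48 in siBach1 cells. At day 2, Cxcl13 levels were 0.74, 0.66 and 0.68 in siControl cells and -0.58, -0.70 and -1.34 in siBach1 cells. No siBach1 array was as high as the lowest siControl array of its day. Its change was -1.34 ± 0.35 (adjusted p = 0.0256) at day 0 and -1.57 ± 0.35 (adjusted p = 0.018) at day 2. The day 0 call was lost without siControl replicate 1 or 2 or siBach1 replicate 2 or 3 of day 0, and the day 2 call without siControl replicate 1 or siBach1 replicate 3 of day 2.

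Ccl25, a ligand of Ccr9 known from thymus and gut, fell at day 2 by both of its probes. Ccl25 levels at day 0 were -0.12, 0.01 and -0.24 in siControl cells and -0.43, -0.24 and -0.28 in siBach1 cells. At day 2, Ccl25 levels were -0.05, 0.02 and -0.19 in siControl cells and -0.82, -0.78 and -1.01 in siBach1 cells. The siBach1 arrays of day 2 stood below the other 9. By this probe the change was -0.80 ± 0.10 (adjusted p = 0.00133) at day 2 and the difference -0.20 ± 0.10 (adjusted p = 0.218) at day 0, and by the other probe -0.88 ± 0.15 (adjusted p = 0.00489) and -0.42 ± 0.15 (adjusted p = 0.079). The difference between the effects of the 2 days was -0.60 ± 0.14 (adjusted p = 0.045) by the first and -0.46 ± 0.21 (adjusted p = 0.234) by the second. For the first, it was lost in 10 of 12 fits with 1 array left out and held without siBach1 day 0 replicate 1 or siControl day 2 replicate 3.

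Cxcl12, the ligand of Cxcr4 and a homing signal for progenitor cells, differed between its 2 probes, which carry the accessions of different transcripts. Cxcl12 levels at day 0 were -0.77, -1.34 and -0.93 in siControl cells and -0.09, -0.51 and 0.40 in siBach1 cells. At day 2, Cxcl12 levels were 0.17, 0.12 and -0.34 in siControl cells and 0.88, 0.14 and 1.05 in siBach1 cells. By this probe the day 0 groups were apart. It rose by 0.95 ± 0.29 (adjusted p = 0.047) at day 0, with a difference of 0.71 ± 0.29 (adjusted p = 0.144) at day 2, while the other probe gave -0.52 ± 0.26 (adjusted p = 0.208) and 0.13 ± 0.26 (adjusted p = 0.812). In 8 of 12 fits with 1 array left out the day 0 call was lost, and it held without siBach1 day 0 replicate 2, siBach1 day 2 replicate 2, siControl day 2 replicate 3 or siBach1 day 2 replicate 3. Cxcl16, the ligand of Cxcr6, and Ccl17, a ligand of Ccr4, had differences between -0.12 and 0.77 and between 0.02 and 0.30, none of which passed. Cxcl16 was well above background on 1 siControl and 2 siBach1 arrays at day 0, where its adjusted p was 0.349 and 0.0211 with the replicate as a block and 0.0211 to 0.71 over all alternatives.

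**Figure D4:**
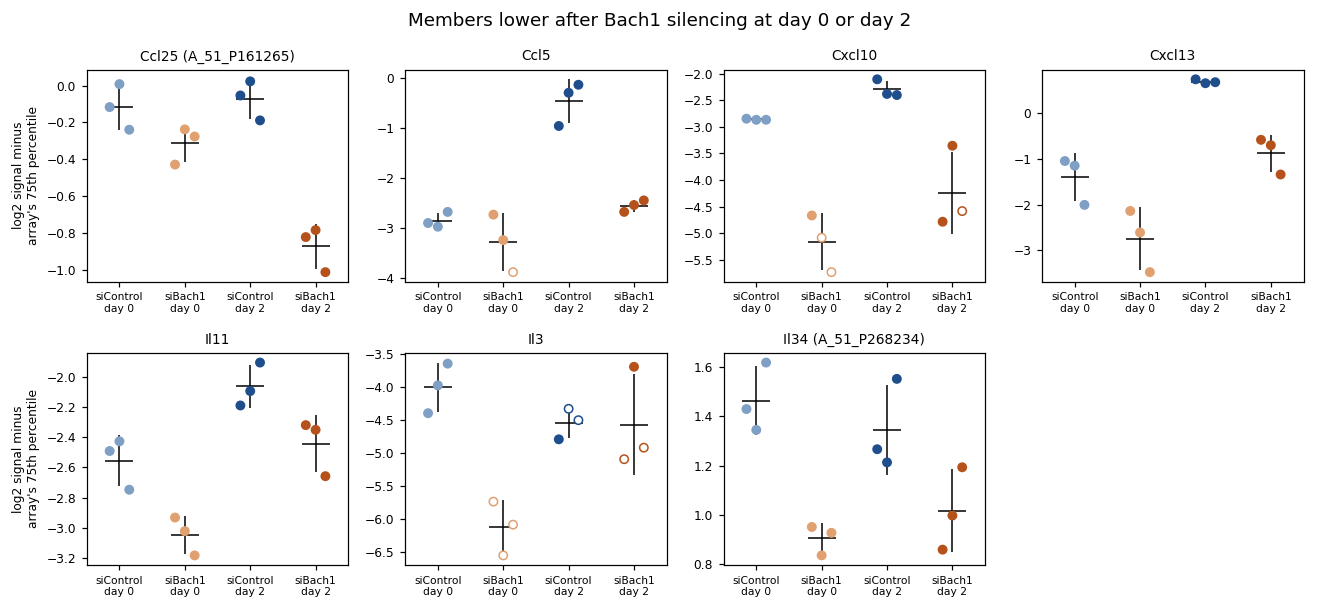
Log2 level (vertical axis, relative to the 75th percentile of the array) on each of the 12 arrays for the 7 genes that fell upon silencing at either day, 1 probe per gene, by condition (horizontal axis). Points are arrays, open where the probe was not well above background, and black marks are the mean and SD of 3. Of several expressed probes of a gene, the one with the lowest adjusted p in either silencing comparison is shown. Cxcl10 and Cxcl13 lie lower in siBach1 cells at both days, and Ccl5 and Ccl25 do so at day 2.

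Of the interleukin 1 family, Il33, a nuclear alarmin released from damaged cells, rose at both days by both probes. Il33 levels at day 0 were -1.38, -1.72 and -1.59 in siControl cells and -0.22, -0.45 and -0.54 in siBach1 cells. At day 2, Il33 levels were -2.32, -2.52 and -2.83 in siControl cells and -1.12, -0.98 and -0.90 in siBach1 cells. The siBach1 arrays were above the siControl arrays by more than the range of either group at both days. Il33 rose by 1.16 ± 0.14 (adjusted p = 0.000495) at day 0 and 1.55 ± 0.14 (adjusted p = 0.000236) at day 2, and by 1.18 ± 0.23 (adjusted p = 0.00574) and 1.72 ± 0.23 (adjusted p = 0.00151) with the other probe. These calls held in all 12 fits with 1 array left out. Il18, which is made as an inactive precursor, differed by -0.34 ± 0.12 (adjusted p = 0.0769) and -0.22 ± 0.12 (adjusted p = 0.271). Il1b, the inflammasome product, differed by -0.13 ± 0.43 (adjusted p = 0.892) at day 2 by 1 of its probes, and at day 0, where that probe was well above background on 1 siControl and 0 siBach1 arrays, it did not pass (adjusted p = 0.919).

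Il15, a ligand of the common gamma chain known in muscle and needed by natural killer cells, rose at day 2 by all 3 of its probes. Il15 levels at day 0 were -4.27, -4.81 and -4.52 in siControl cells and -3.70, -3.74 and -3.72 in siBach1 cells. At day 2, Il15 levels were -0.90, -0.93 and -0.82 in siControl cells and 0.56, 0.51 and 0.73 in siBach1 cells. Day and siRNA separated the 4 conditions without overlap, although at day 0 only 1 siControl array was well above background. By this probe Il15 rose by 0.81 ± 0.12 (adjusted p = 0.00159) at day 0 and 1.48 ± 0.12 (adjusted p = 0.000125) at day 2. The second probe, well above background on all 12 arrays, gave 0.25 ± 0.14 (adjusted p = 0.282) at day 0 and 1.57 ± 0.14 (adjusted p = 0.000219) at day 2. The third, which was measured on 1 siControl and 3 siBach1 arrays at day 2 and on none at day 0, gave 1.60 ± 0.30 (adjusted p = 0.00836) at day 2. The effects of the 2 days differed by 1.33 ± 0.20 (adjusted p = 0.0107) for the second probe, a call that held in all 12 fits with 1 array left out. For the first the difference was 0.67 ± 0.17 (adjusted p = 0.0565), with an adjusted p of 0.0273 with the replicate as a block and 0.015 to 0.234 over all alternatives. For the third, which was on none of the day 0 arrays, no size is given, and its adjusted p was 0.104, 0.0449 with the replicate as a block and 0.00676 to 0.72 over all alternatives.

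Of the members that signal through gp130, Il6 rose and Il11 fell at day 0, and Il27 did not pass. Il6 levels at day 0 were -4.31, -4.14 and -4.79 in siControl cells and -2.45, -2.81 and -3.16 in siBach1 cells. At day 2, Il6 levels were -2.05, -3.96 and -2.58 in siControl cells and -2.10, -2.25 and -2.01 in siBach1 cells. At day 0 the siBach1 arrays were all above the siControl arrays, of which 2 were well above background, and at day 2 the siControl arrays spread from -3.96 to -2.05 and the groups overlapped. Il6, the classical cytokine of contracting muscle, rose by 1.60 ± 0.40 (adjusted p = 0.0223) at day 0, with a difference of 0.74 ± 0.40 (adjusted p = 0.273) at day 2. Its second probe was not well above background on any siControl array of day 0, so that its rise there was at least 1.45-fold (adjusted p = 0.0242), taking for the dim group the lowest signal of each array among probes above background. Each of these calls was lost in 4 of 12 fits with 1 array left out, which were those without siBach1 day 0 replicate 1 or 2 and without siControl day 0 replicate 1 or 3 for the first probe and 2 or 3 for the second.

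Il11 levels at day 0 were -2.49, -2.43 and -2.75 in siControl cells and -2.93, -3.02 and -3.18 in siBach1 cells. At day 2, Il11 levels were -2.19, -2.09 and -1.90 in siControl cells and -2.32, -2.35 and -2.66 in siBach1 cells. The siBach1 arrays were below the siControl arrays of their day by less than 1 log2 unit. Il11 fell by 0.49 ± 0.13 (adjusted p = 0.0271) at day 0, and the difference at day 2 was -0.38 ± 0.13 (adjusted p = 0.0866). The call was lost without siControl replicate 1 or 2 or siBach1 replicate 2 or 3 of day 0.

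Il12a encodes the p35 subunit, which pairs with p40 in interleukin 12, and Il27 a subunit of interleukin 27. The gene of p40, Il12b, was silent, with its probe well above background on 3 of the 12 arrays. Il12a levels at day 0 were -3.94, -3.26 and -3.47 in siControl cells and -2.36, -2.42 and -2.99 in siBach1 cells. At day 2, Il12a levels were -0.80, -0.01 and -0.91 in siControl cells and 0.23, 0.49 and 0.15 in siBach1 cells. The groups did not overlap at either day. Il12a rose by 0.96 ± 0.27 (adjusted p = 0.0323) at day 0, where the call was lost without siControl replicate 1 or 3 or siBach1 replicate 1 or 2. At day 2 the difference was 0.86 ± 0.27 (adjusted p = 0.063), with an adjusted p of 0.0187 with the replicate as a block and 0.0176 to 0.199 over all alternatives. Il27 differed by -0.27 ± 0.28 (adjusted p = 0.583) and 0.03 ± 0.28 (adjusted p = 0.964).

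Il34, the second ligand of the macrophage colony-stimulating factor receptor, fell at day 0 by both probes. Il34 levels at day 0 were 1.43, 1.35 and 1.62 in siControl cells and 0.95, 0.84 and 0.93 in siBach1 cells. At day 2, Il34 levels were 1.27, 1.21 and 1.55 in siControl cells and 0.86, 0.998 and 1.19 in siBach1 cells. The groups were apart at both days by this probe. The changes were -0.56 ± 0.12 (adjusted p = 0.0108) and -0.49 ± 0.13 (adjusted p = 0.0277) at day 0 by the 2 probes, and the differences -0.33 ± 0.12 (adjusted p = 0.111) and -0.16 ± 0.13 (adjusted p = 0.478) at day 2. With the replicate as a block the day 2 difference of the first probe had an adjusted p of 0.0258, in a range of 0.0184 to 0.324 over all alternatives. The day 0 call of the second probe was lost without siControl replicate 1 or 3 or without any 1 of the siBach1 arrays.

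Il3, a growth factor of blood progenitors, was dim throughout by its expressed probe, and its other probe was well above background on 0 arrays. Il3 levels at day 0 were -4.40, -3.98 and -3.65 in siControl cells and -5.74, -6.55 and -6.09 in siBach1 cells. At day 2, Il3 levels were -4.80, -4.33 and -4.51 in siControl cells and -5.10, -3.70 and -4.92 in siBach1 cells. It was well above background on the 3 siControl arrays of day 0, on no siBach1 array of day 0 and on 1 array of each group at day 2. The fall at day 0 was at least 1.29-fold (adjusted p = 0.00285) and the difference at day 2 was -0.03 ± 0.36 (adjusted p = 0.975). With a normexp background correction in place of the scanner's, Il3 did not pass at day 0. The test of the difference between the effects of the 2 days passed (adjusted p = 0.0457), but it rests on those day 0 arrays, so that no size is given, and the call was lost in 10 of 12 fits with 1 array left out, all but those without siBach1 day 0 replicate 1 or siBach1 day 2 replicate 2.

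The remaining expressed interleukins did not pass at either day. Il7, which keeps lymphocytes alive, was well above background on 1 siControl and 3 siBach1 arrays at day 0, with a difference of 0.88 ± 0.45 (adjusted p = 0.219), and on 0 arrays at day 2. Il21 differed by -0.04 and 0.15 and Il22 by -0.62 and -0.43 at day 0 and day 2. Il17d, a member of the interleukin 17 family, differed by 0.09 at day 0 and -0.58 ± 0.35 (adjusted p = 0.32) at day 2, with an adjusted p of 0.0491 with the replicate as a block and 0.0369 to 0.689 over all alternatives there. The eosinophil chemokine Ccl11 differed by -1.0003 ± 0.36 (adjusted p = 0.0832) and -0.61 ± 0.36 (adjusted p = 0.31), and was well above background on 1 of 3 siBach1 arrays at day 0.

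To see how the ligands moved with differentiation, day 2 was compared with day 0 for each siRNA. In siControl cells 16 of the 38 expressed member probes (42.1%) rose and 7 (18.4%) fell, where 24.6% of all expressed probes rose and 28.7% fell. In siBach1 cells 15 (39.5%) rose and 8 (21.1%) fell, where 23.8% and 32.3% of all did. The median fitted change of the member probes was 0.42 in siControl and 0.41 in siBach1 cells, against 0.00 and -0.07 over all expressed probes. Of the probes measured on all 6 arrays compared, 10 of 28 rose and 6 fell in siControl cells, and 9 of 26 rose and 7 fell in siBach1 cells. With dim probes at their bounds the medians were 0.22 and 0.21, and at least 2-fold rises and falls numbered 12 and 5 in siControl and 10 and 4 in siBach1 cells. Here too, the counts over probes measured on all 6 arrays and the 2-fold counts have no share over all probes beside them. Each of these comparisons uses the arrays of the silencing comparisons again. The summed level of muscle markers given above rose over the same days, and was lower in siBach1 than in siControl cells at day 2.

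In siControl cells the largest rises were those of Il15, Il1b, Il12a and Ccl11. Il15 rose by 3.65 ± 0.12 (adjusted p = 1.67e-08) in siControl and 4.32 ± 0.12 (adjusted p = 1.43e-08) in siBach1 cells by the first probe above, by 3.07 ± 0.14 (adjusted p = 1.10e-07) and 4.40 ± 0.14 (adjusted p = 2.32e-08) by the second, and by the third at least 1.03- and 2.59-fold. Il12a rose by 2.98 ± 0.27 (adjusted p = 6.26e-06) and 2.88 ± 0.27 (adjusted p = 7.52e-06). For both genes, no array of day 2 was as low as an array of day 0.

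Il1b levels at day 0 were -4.44, -6.16 and -5.42 in siControl cells and -4.85, -5.45 and -5.99 in siBach1 cells. At day 2, Il1b levels were -2.01, -2.50 and -2.54 in siControl cells and -2.04, -2.39 and -3.02 in siBach1 cells. Its arrays were mixed between the siRNAs and apart between the days, being well above background on 1 array of day 0 and all 6 of day 2. Il1b rose by 2.99 ± 0.43 (adjusted p = 0.000183) in siControl cells and at least 3.65-fold in siBach1 cells (adjusted p = 0.000192). With its other probe, on 0 arrays of day 0, the rise was at least 1.89-fold (adjusted p = 0.00223) in siControl cells and the fitted change did not pass in siBach1 cells (adjusted p = 0.0896).

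Ccl11 levels at day 0 were -4.06, -3.89 and -3.53 in siControl cells and -4.20, -5.15 and -5.13 in siBach1 cells. At day 2, Ccl11 levels were -1.13, -0.997 and -1.43 in siControl cells and -2.02, -0.99 and -2.38 in siBach1 cells. All day 2 arrays were above all day 0 arrays. Ccl11 rose by 2.64 ± 0.36 (adjusted p = 0.000111) in siControl and 3.03 ± 0.36 (adjusted p = 4.01e-05) in siBach1 cells. Il18 levels at day 0 were 0.78, 0.62 and 0.57 in siControl cells and 0.58, 0.28 and 0.09 in siBach1 cells. At day 2, Il18 levels were 1.71, 1.80 and 1.85 in siControl cells and 1.56, 1.498 and 1.64 in siBach1 cells. Those of day 2 were again the higher ones. For Il18 the rise was 1.13 ± 0.12 (adjusted p = 2.11e-05) and 1.25 ± 0.12 (adjusted p = 9.58e-06).

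Of the chemokines that changed upon silencing, Ccl5 rose by 2.38 ± 0.28 (adjusted p = 3.97e-05) in siControl cells and 0.73 ± 0.28 (adjusted p = 0.0449) in siBach1 cells. In siBach1 cells the adjusted p of Ccl5 was 0.0653 with the replicate as a block and 0.00844 to 0.237 over all alternatives, its change was between 0.43 and 1.005 with 1 array left out, and the call held only without siBach1 day 0 replicate 1, siControl day 2 replicate 1 or siControl day 2 replicate 3. Ccl9 rose by 1.08 ± 0.32 (adjusted p = 0.0153) and 3.13 ± 0.32 (adjusted p = 1.53e-05), where the siControl call was lost without siControl day 2 replicate 2 or siControl day 0 replicate 3. Cxcl13 rose by 2.09 ± 0.35 (adjusted p = 0.000501) and 1.87 ± 0.35 (adjusted p = 0.001), and Ccl8 by 1.72 ± 0.16 (adjusted p = 8.36e-06) and 1.03 ± 0.16 (adjusted p = 0.000276). Cxcl10 differed by 0.56 ± 0.35 (adjusted p = 0.205) in siControl and rose by 0.92 ± 0.35 (adjusted p = 0.0457) in siBach1 cells, between 0.48 and 1.19 with 1 array left out, and this call held only without siBach1 replicate 1 of either day or siBach1 day 2 replicate 3. The first Cxcl12 probe rose by 1.002 ± 0.29 (adjusted p = 0.0133) and 0.76 ± 0.29 (adjusted p = 0.0451) and the other did not pass. Without siControl day 0 replicate 2 the rise of that Cxcl12 probe in siControl cells did not pass, and in siBach1 cells its call was lost in 8 of 12 such fits and held without siControl day 0 replicate 2, siBach1 day 2 replicate 2, siBach1 day 0 replicate 3 or siControl day 2 replicate 3. Il11 rose by 0.49 and 0.60. Both Il6 probes rose in siControl cells, by 1.55 on the log2 scale and at least 1.28-fold, the second not without siControl day 0 replicate 3, and did not pass in siBach1 cells. In siBach1 cells Il3 passed (adjusted p = 0.00357) with 0 arrays of day 0 and 1 of day 2 above background, so that no fold is given, and it differed by -0.54 in siControl cells.

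Ccl2, Ccl7, Cxcl1 and Cxcl5 fell in both siRNA groups. Ccl2 levels at day 0 were 3.87, 4.01 and 3.65 in siControl cells and 4.13, 4.28 and 4.02 in siBach1 cells. At day 2, Ccl2 levels were 2.10, 2.18 and 1.99 in siControl cells and 2.41, 2.36 and 2.71 in siBach1 cells. The day 2 arrays were below the day 0 arrays in both siRNA groups. Ccl2 fell by 1.76 ± 0.13 (adjusted p = 1.56e-06) in siControl and by 1.65 ± 0.13 (adjusted p = 2.25e-06) in siBach1 cells. For Ccl7 the changes were -1.49 ± 0.12 (adjusted p = 3.92e-06) and -1.94 ± 0.12 (adjusted p = 7.35e-07), for Cxcl1 -1.47 ± 0.17 (adjusted p = 3.72e-05) and -1.53 ± 0.17 (adjusted p = 2.75e-05), and for Cxcl5 -1.69 ± 0.25 (adjusted p = 0.0002) and -1.16 ± 0.25 (adjusted p = 0.00225). Il33 changed by -0.99 and -1.07 in siControl cells by its 2 probes. In siBach1 cells the first Il33 probe fell by 0.60 (adjusted p = 0.00474), and the second differed by -0.53 ± 0.23 (adjusted p = 0.0696), with an adjusted p of 0.0359 with the replicate as a block and 0.0356 to 0.252 over all alternatives. Ccl25 fell in siBach1 cells, by 0.56 and 0.66 by its 2 probes, and differed by 0.04 and -0.20 in siControl cells.

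Il7 levels at day 0 were -4.53, -5.18 and -4.26 in siControl cells and -3.87, -4.02 and -3.45 in siBach1 cells. At day 2, Il7 levels were -7.07, -6.26 and -6.40 in siControl cells and -5.81, -6.35 and -4.38 in siBach1 cells. It was well above background on 1 siControl array and 3 siBach1 arrays at day 0 and on none at day 2. In siControl cells the lower signal of day 2 passed (adjusted p = 0.00442) but has no fold, since the bound was under 1, and with the normexp background correction the difference was 0.0097. In siBach1 cells the fall was at least 1.7-fold (adjusted p = 0.00745). Cxcl16 levels at day 0 were -4.39, -5.10 and -6.01 in siControl cells and -3.58, -4.20 and -5.40 in siBach1 cells. At day 2, Cxcl16 levels were -3.51, -3.77 and -4.28 in siControl cells and -3.33, -4.12 and -4.48 in siBach1 cells. Its replicates spread over more than 1 log2 unit in 3 of the 4 conditions. Cxcl16 differed by 1.31 ± 0.52 (adjusted p = 0.0538) and 0.42 ± 0.52 (adjusted p = 0.531), and in siControl cells the adjusted p was 0.000424 with the replicate as a block and 0.000423 to 0.19 over all alternatives.

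Ccl17, Cxcl11, Il17d, Il21, Il22, Il27 and Il34 had differences between the days that did not pass in either siRNA group, from -0.38 to 0.52. In siControl cells Il17d differed by 0.52, with an adjusted p of 0.0293 with the replicate as a block and 0.00303 to 0.569 over all alternatives. There the Il27 difference was -0.38, with 0.0309 with the replicate as a block and 0.0239 to 0.634 over all alternatives, and that of the second Cxcl11 probe 0.34, with 0.0213 with the replicate as a block and 0.00544 to 0.166 over all alternatives.

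**Figure D5:**
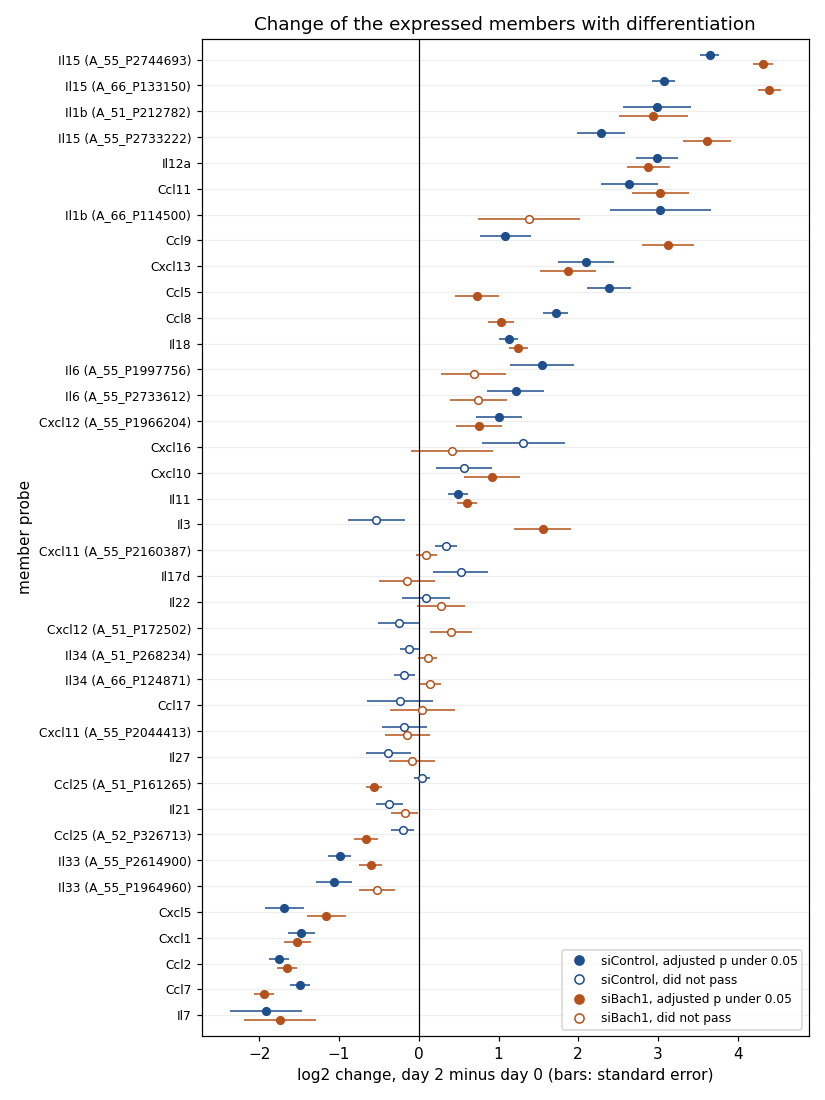
Log2 change from day 0 to day 2 (horizontal axis, bars are the standard error of the fit) for each expressed member probe, in siControl (blue) and siBach1 cells (red). Filled points passed the adjusted p of 0.05, and points of Il3, Il7, the third Il15 probe, Il1b and the second Il6 probe that rest on a group not above background are fitted values. Il15, Il12a and Ccl11 lie far to the right in both, and Ccl2, Ccl7, Cxcl1 and Cxcl5 to the left.

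The difference between the silencing effects of day 2 and day 0 passed for 3 member probes that were higher and 2 that were lower at day 2, which is 7.89% and 5.26% of 38, where 2.39% and 2.2% of all expressed probes did. They were those of Ccl9, Il15 and Il3, and of Ccl5 and Ccl25, with the values given above, of which that of Il3 rests on a group not above background. The median difference was 0.12 over the member probes and -0.07 over all. Only the Il15 call held in all 12 fits with 1 array left out, in which 1 to 3 of the 38 probes passed. For Cxcl1, Cxcl10, Cxcl13, Il12a and Il33, which went the same way at both days, the difference did not pass. Nor did it pass for Ccl7, Ccl8, Cxcl12, Il6, Il11 and Il34, which were called at day 0 alone, so their effects were not shown to differ between the days.

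The genes that receive, relay or accompany these ligands were described with 5 lists and 1 probe per gene. The shares of each list are read beside those of all expressed probes, of which 8.8% rose and 8.32% fell at day 0 and 5.75% and 6.26% at day 2. Of 23 chemokine receptor genes only 4 were expressed. Among these Cxcr4, the receptor of Cxcl12, rose by 1.74 ± 0.19 (adjusted p = 0.000241) at day 0, and no other passed at either day. Of 43 interleukin receptors and soluble inhibitors, 29 were expressed, of which 2 rose (6.9%) and 2 fell (6.9%) at day 0 and 4 rose (13.8%) and 2 fell (6.9%) at day 2, with median fitted changes of 0.09 and -0.07, the first being 0.01 with dim genes at their bounds. Il1rap, the shared subunit of the Il1b and Il33 receptors, changed by -1.13 ± 0.18 (adjusted p = 0.00183) at day 0. Il12rb2, a subunit of the interleukin 12 receptor, changed by -1.23 ± 0.30 (adjusted p = 0.025) at day 2. Il17rc, a receptor of interleukin 17, rose by 0.59 ± 0.10 (adjusted p = 0.00285) at day 0 and 0.80 ± 0.10 (adjusted p = 0.00116) at day 2. Il13ra2, the decoy receptor of interleukin 13, rose by 0.68 ± 0.18 (adjusted p = 0.0323) at day 2. The Il12rb2 and Il13ra2 calls were lost in 4 and 6 of 12 fits with 1 array left out, which for Il12rb2 were those without siControl or siBach1 replicate 1 or 2 of day 2 and for Il13ra2 those without any 1 array of day 2.

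Of 40 genes of NF-kappaB and of Toll and interleukin 1 receptor signalling, 37 were expressed, of which 3 rose (8.11%) and 5 fell (13.5%) at day 0 and 3 rose (8.11%) and 2 fell (5.41%) at day 2, with medians of 0.14 and 0.01. Over all expressed probes the shares were 8.8% and 8.32% at day 0 and 5.75% and 6.26% at day 2. The genes with the largest changes were Ikbkg, the regulatory subunit of the IkappaB kinase, at 1.10 ± 0.13 (adjusted p = 0.000923) at day 2, and at day 0 Irak3, a negative regulator of the interleukin 1 receptor kinases, at -0.96 ± 0.24 (adjusted p = 0.0201). Tab2, an adaptor of the kinase Tak1, changed by -0.92 ± 0.08 (adjusted p = 6.17e-05) at day 0 and -0.48 ± 0.08 (adjusted p = 0.00487) at day 2, and Nfkbiz, a nuclear IkappaB protein that promotes the transcription of Il6, by 0.81 ± 0.15 (adjusted p = 0.0056) at day 0. The Irak3 call was lost without siControl replicate 1 or siBach1 replicate 2 or 3 of day 0, and with the normexp background correction.

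Of 39 other cytokine ligand genes, which the symbol rule does not take in, 19 were expressed, of which 1 rose (5.26%) and 0 fell (0%) at day 0 and 2 rose (10.5%) and 2 fell (10.5%) at day 2. Of all expressed probes 8.8% rose and 8.32% fell at day 0 and 5.75% and 6.26% at day 2. The colony-stimulating factor Csf1 rose by 0.72 ± 0.15 (adjusted p = 0.0106) at day 0. At day 2 the chemokine Ppbp, which was well above background on 0 siControl and 1 siBach1 arrays, was higher by at least 1.01-fold (adjusted p = 0.0279), and Tslp changed by 0.66 ± 0.17 (adjusted p = 0.031) and Mif by -0.40 ± 0.10 (adjusted p = 0.0251). Leaving out 1 array ended the calls of these last genes in 4 of 12 fits each, all without an array of day 2, and Ppbp did not pass with the normexp correction.

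Of 25 interferon-stimulated and acute inflammatory genes, 22 were expressed, of which 4 rose (18.2%) and 2 fell (9.09%) at day 0 and 0 rose (0%) and 6 fell (27.3%) at day 2, with medians of -0.01 and -0.10, the first being 0.06 with dim genes at their bounds. These stand beside 8.8% and 8.32% of all expressed probes at day 0 and 5.75% and 6.26% at day 2. At day 2 Usp18, which removes Isg15 from proteins, fell at least 3.24-fold (adjusted p = 0.00611) and Ifit1, an interferon-induced RNA-binding protein, at least 2.77-fold (adjusted p = 0.00154), both to a siBach1 group not above background on any array. Ifit2 changed by -2.01 ± 0.18 (adjusted p = 7.79e-05) at day 0 and -1.62 ± 0.18 (adjusted p = 0.000659) at day 2, and Ifit3 by -1.64 ± 0.47 (adjusted p = 0.0372) and -1.94 ± 0.47 (adjusted p = 0.0247). The 2 genes of this list that fell at day 0 were Ifit2 and Ifit3, and the 4 named genes were among the 6 that fell at day 2. The 4 genes that rose at day 0 are not among those named, so that the named genes do not stand for the whole list. The Ifit3 call was lost at day 0 in 7 of 12 fits with 1 array left out, which were without any siControl day 0 array, siBach1 day 0 replicate 2 or 3 or siBach1 day 2 replicate 1 or 2, and at day 2 without siBach1 replicate 1 or 2 or siControl replicate 2 at day 2.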

How the data were processed

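RNA of C2C12 cells in 4 conditions, 3 samples each, was hybridized to 12 one-colour Agilent mouse arrays. The authors scanned the arrays and deposited, per the file headers, a processed signal intensity after background subtraction with flags. They also deposited a table of log2 values made in GeneSpring, each array centred on its 75th percentile and each probe on its median, which was an alternative here, and 12 columns of raw signal that were not used. Control and outlier spots were removed, repeated spots averaged on the log2 scale, and the 75th percentile of each array subtracted. A probe was kept where each of the 3 arrays of any condition had it well above background, and the 29664 of 56605 probes kept were fitted once over the 4 conditions with limma 3.58.1 (R 4.3.3), with Benjamini-Hochberg adjustment over all of them. Files were read with Python 3.11 and pandas 2.3.3. The script was tested on simulated data. Symbols are those of the deposited table, and promoters came from RefSeq.

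Samples of the same replicate number deviated together in all 18 pairs of arrays from different groups, with correlations of 0.142 to 0.595, above the limit of 0.1. The numbers may therefore pair the samples. The main fit did not use them, and replicate was a block in an alternative. Numbers also share a slide, 1 and 2 on 1 slide and 3 on the other. Correlations between arrays of different numbers were not computed, so this check cannot tell pairing from slide.

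Values in each array are given for genes that passed in either silencing comparison and for the 6 others with the largest change between days in siControl cells. Of each related list, up to 4 genes with the largest change among those that passed are named, and of silent members Il4, Il10, Il13, Cxcl9 and Il12b. The members, lists and alternatives were chosen with earlier results of these data known. Depth has no meaning for arrays, and the number of arrays limits the precision. A probe not above background on any array of a group has a bound in place of a fold, or no size where the bound is under 1.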

Additional observations from a re-analysis of the deposited data

Results flagged for a closer look

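The silencing effect differed between day 2 and day 0, by the test of that difference in the limma fit, for 5 member probes. On the log2 scale the effect at day 2 minus that at day 0 was 2.04 (adjusted p = 0.0344) for Ccl9, 1.33 (adjusted p = 0.0107) for Il15, -1.65 (adjusted p = 0.0431) for Ccl5 and -0.60 (adjusted p = 0.045) for Ccl25. For Il3 the fitted value was 2.09 (adjusted p = 0.0457), which is no measured size, since siBach1 cells of day 0 were not above background on any array and each group of day 2 on 1 array. The second Ccl25 probe did not pass (adjusted p = 0.234). Of the 38 member probes 7.89% were higher and 5.26% lower, where 2.39% and 2.2% of all expressed probes were. The related lists held 7 genes that passed this test. Higher and lower were 0 and 1 of 4 chemokine receptors, 1 and 1 of 29 interleukin receptors and soluble inhibitors, and 2 and 1 of 37 signalling genes. Of 19 other cytokine ligands 0 and 1 passed, and of 22 interferon-stimulated and acute inflammatory genes 0 and 0. Among receptors the value was -1.22 (adjusted p = 0.0359) for Cxcr4, -0.76 (adjusted p = 0.0453) for Il1r1 and 0.92 (adjusted p = 0.01) for Il6ra. For signalling genes it was 0.53 (adjusted p = 0.0444) for Nfkb1, 0.87 (adjusted p = 0.0291) for Ikbkg and -0.66 (adjusted p = 0.0385) for Tlr6, and for the cytokine Mif it was -0.61 (adjusted p = 0.0369).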

How the results depend on the processing

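The limits are the number of arrays and the dim members, of which 15 of 38 were not above background on every array. Member probes that passed numbered 17 at day 0, and 8 with no filter on dim probes, 8 by the methods' t-test with adjustment, 7 with a 2-fold change also required and 10 to 17 with 1 array left out. At day 2 they numbered 13, and 8 by that t-test and 12 to 14 with 1 array left out. Between the days 23 passed for each siRNA, and 15 for each when the fit was made over probes above background on all 12 arrays, and with 1 array left out 22 to 25 passed in siControl and 20 to 23 in siBach1 cells. These are counts of each fit and need not hold the same probes. For the difference between the silencing effects, 5 passed, but 0 with no filter or on slide 1 alone, 3 among probes on all 12 arrays, 2 by the t-test with adjustment and 9 without, and 1 to 3 with 1 array left out. At either day 23 probes passed, and 15 by the t-test with adjustment, 13 with a 2-fold change and 18 to 24 with 1 array left out. Expressed members numbered 38, and 23 when all 12 arrays were required. The fitted change of Il7 between the days in siControl cells, with day 2 not above background, turned from -1.92 to 0.0097 with the normexp background correction. With no filter more probes are tested, the fit over probes on all 12 arrays holds only 23 of the 38 members, and a required 2-fold change can only remove calls. For the other settings the cause was not tested. With the replicate as a block, which takes the numbers to pair the samples, 18, 16, 27, 23 and 7 probes passed in the 5 comparisons in the order above. The calls that the block changed among members are given beside them. The authors' normalized values ended no call of a member.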
